A study of Parasteatoda tepidariorum with 16 samples.

Results

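The gene models *g7019* and *g7020* are neighbours in the genome of the spider *Parasteatoda tepidariorum*, and the deposited annotation names the product of both uro-adherence factor A. They were taken by these 2 identifiers from the 27990 gene models of the count file. The pair was picked from earlier results of these data, for a comparison of the level and of the difference between central and peripheral cells by stage. That difference is therefore given as a description, with no p-value, and whether a member was called for it is stated only beside the share of all genes called.

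The libraries were made from small pools of cells that the authors drew with a glass capillary from the germ disc, the cell sheet from which the body of the spider forms, and from the same regions at later stages. The embryos were wild type, of the Osaka isolate, and carried no transgene or treatment. At stage 3, 20 h after egg laying, cells came from the centre of the disc (c cells, 2 libraries), from its periphery (p cells, 3 libraries) and from the region between (i cells, 3 libraries). At stage 4, 28 to 29 h after egg laying, and at early stage 5, 31 to 32 h, c and p cells gave 2 libraries each. Each pool held 10 to 100 cells by the labels, which name 4 mothers, 1 for the stage-3 c and p cells, 1 for the stage-3 i cells, 1 for stage 4 and 1 for early stage 5. Neither the effects of stage nor those of the i region can be told apart from those of the mother. In such pools, fewer cells that express a gene and less RNA per cell cannot be told apart either.

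Total counts per library ran from 4566853 to 10500376, so that a count of 0 allows a TMM-normalized level of up to 0.255 to 0.773 CPM, depending on the library (3 counts, counting error only). The markers of the centre (*g4238*, *g14287* and *g16467*) summed to 422 to 2491 CPM in the 6 c libraries, to 0 in the i libraries and to 0.192 to 1.28 CPM in the 7 p libraries. Those of the periphery (*Pt-hh*, *Pt-lab1* and *Pt-opa*), also summed, separated p from c cells at stage 4 (463 to 938 CPM against 74.2 to 84.7). They did so at early stage 5 too (702 to 1292 against 22.0 to 40.7), but not at stage 3. Taken singly, *Pt-lab1* was higher in every stage-3 p library (76.9 to 184 CPM) than in c cells (56.3 to 57.8 CPM). *Pt-hh* and *Pt-opa* overlapped there.

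Uro-adherence factor A is the name of a surface protein of the bacterium *Staphylococcus saprophyticus*, which lets the cell adhere to its host. The name came to the spider models through automatic annotation, and no function is given for the spider protein in the sources used here. Names of this kind (adhesin, mucin, serine-rich protein) are often given to long proteins built of repeats, where the likeness can lie in the repeats alone.

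Both models lie on the minus strand of scaffold 13 of the assembly Ptep_1.0. Model *g7019* spans 1352142 to 1366206 (14065 bases) and *g7020* spans 1366255 to 1367546 (1292 bases), with 48 bases between them, so that *g7020* lies upstream of *g7019*. The deposited file gives both the same NCBI gene identifier, LOC107436137. It gives this identifier and product to the model *g7018* as well, which spans 1341698 to 1354126 and overlaps *g7019* by 1985 bases. *g7018*, *g7019* and *g7020* are thus 3 models of 1 NCBI gene, and in the RefSeq table of the later assembly CAS_Ptep_4.0 this gene is 1 entry with 1 transcript. In the deposited file 1509 of 17167 NCBI genes (8.79%) have more than 1 model, and 157 have 3 or more. Counts of the pair may therefore be 2 readings of 1 transcript, and were not treated as independent of each other.

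Upstream of *g7020*, after 962 bases, follows *g7021* (LOC107436138, an uncharacterized serine-rich protein) on the same strand. Downstream of *g7018*, after 1421 bases, lies *g7017*, which is named a serine-rich adhesin for platelets-like protein and had no counts in any library. Of the 5 models on each side of the pair, *g7018* included, 5 of 10 had no counts at all.

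**Figure D1:**
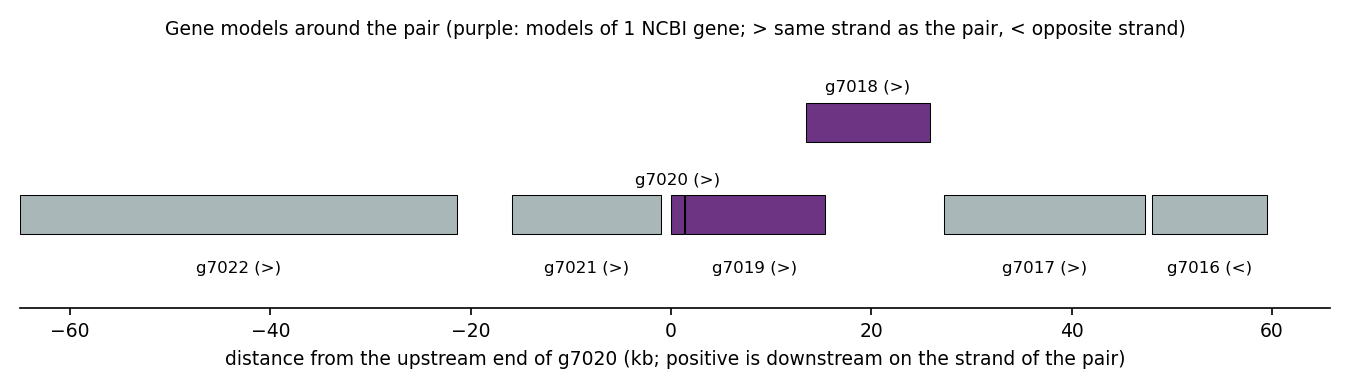
Gene models around *g7019* and *g7020*, drawn to scale by distance in kb from the upstream end of *g7020*, with positive values downstream on the strand of the pair and *g7022* leftmost. The 3 models of LOC107436137 (purple) adjoin or overlap each other, and *g7021* begins 962 bases from *g7020*.

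The pair was detected in all 16 libraries and passed the filter on low counts in every comparison. In stage-3 libraries *g7019* had 863 and 455 CPM in c cells, 645, 442 and 672 CPM in i cells and 810.5, 892 and 720 CPM in p cells. The 3 regions overlapped, and all 8 libraries lay between 442 and 892 CPM. At stage 4 it had 800 and 391 CPM in c cells but 83.7 and 27.3 CPM in p cells. At early stage 5 it had 757 and 1440 CPM in c cells and 51.2 and 80.4 CPM in p cells. The 4 late p libraries (stage 4 and early stage 5) were thus the lowest of the 16, with 222 to 484 counts each against 2937 to 10015 counts in the other 12.

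The shorter model *g7020* was also lowest in the late p libraries. At stage 3 it had 429 and 272 CPM in c cells, 244, 224 and 231 CPM in i cells and 321, 395 and 184 CPM in p cells, again with overlap between the 3 regions. At stage 4 the c libraries had 382 and 151 CPM and the p libraries 57.4 and 9.83 CPM. At early stage 5 the c libraries had 363 and 712 CPM and the p libraries 7.87 and 30.0 CPM. The late p libraries held 37 to 332 counts of *g7020*, and no other library held fewer than 1251.

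Ordered by group mean, *g7019* was at 1099 ± 483 CPM (SD, n = 2) in early stage-5 c cells, 808 ± 85.8 (n = 3) in stage-3 p cells, 659 ± 289 (n = 2) in stage-3 c cells, 595 ± 290 (n = 2) in stage-4 c cells and 587 ± 125 (n = 3) in stage-3 i cells. It was at 65.8 ± 20.6 CPM (n = 2) in early stage-5 p cells and 55.5 ± 39.9 (n = 2) in stage-4 p cells. Each group overlapped the next in this order, except that stage-3 i cells lay above early stage-5 p cells without overlap. For *g7020* the order was early stage-5 c cells (537 ± 247 CPM), stage-3 c cells (351 ± 111), stage-3 p cells (300.1 ± 107), stage-4 c cells (266 ± 163) and stage-3 i cells (233 ± 9.92), followed by stage-4 p cells (33.6 ± 33.7) and early stage-5 p cells (18.9 ± 15.7). Here too neighbours overlapped, except stage-3 i cells and stage-4 p cells.

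**Figure D2:**
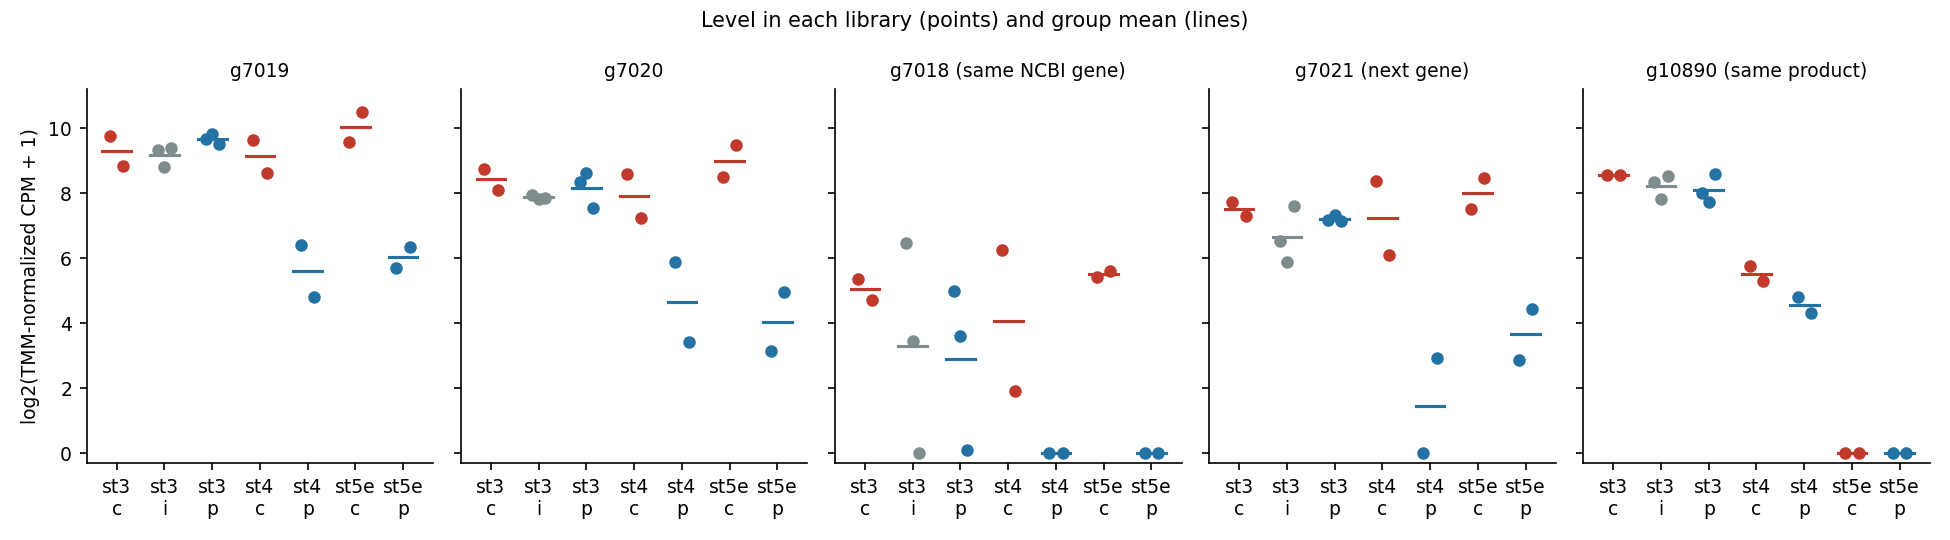
Level of the pair and of 3 related models in each library (points) with group means (lines), as log2 of TMM-normalized CPM plus 1, in c (red), i (grey) and p (blue) cells at stage 3 (st3), stage 4 (st4) and early stage 5 (st5e). Model *g7019* lies between 391 and 1440 CPM in 12 libraries and between 27.3 and 83.7 CPM in the p libraries of stage 4 and early stage 5, and *g10890* is at 0 in the 4 early stage-5 libraries.

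CPM of models of different length cannot be compared, so the RPKM of the authors, which divide by length, were used to compare the 2 models. In all 8 stage-3 libraries *g7020* was at 1.01 to 2.35 times the RPKM of *g7019*, and in the 4 late c libraries at 1.52 to 1.94 times. In the late p libraries the ratio ran from 0.604 to 2.70, and it was above 1 in 15 of 16 libraries. Measured as counts, *g7020* made up a median of 29.5% of the counts of the pair over the 16 libraries. The lowest share, 13.3% (exact 95% binomial interval 9.55 to 17.9), and the highest, 40.7% (37.3 to 44.1), were both in late p libraries, of early stage 5 and of stage 4. In the other 12 the share ran from 20.4% to 37.4%. The widest spread of the share was thus among the late p libraries, which had the fewest counts, but the intervals of these extremes did not overlap. The intervals cover counting error only, not the spread between pools.

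**Figure D3:**
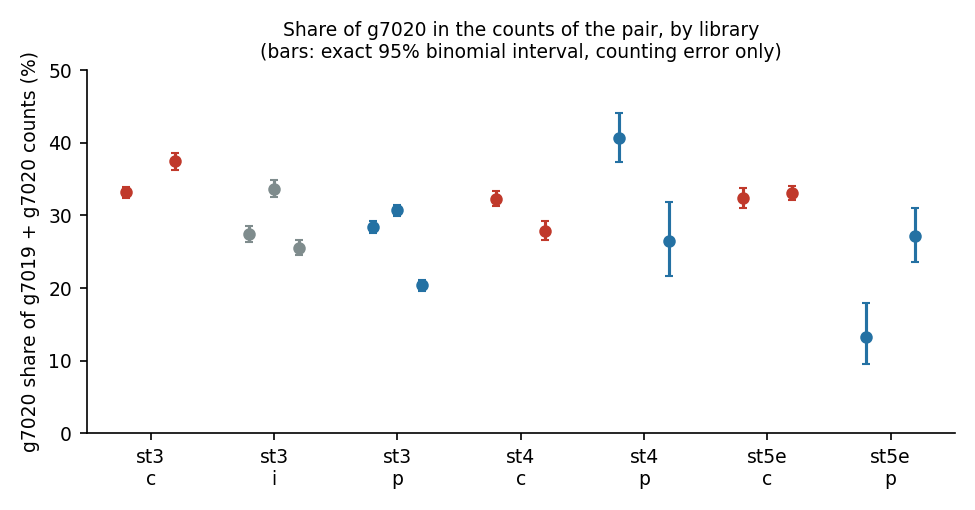
Share of *g7020* in the summed counts of *g7019* and *g7020* in each library (points, percent) with exact 95% binomial intervals (bars, counting error only), in c (red), i (grey) and p (blue) cells. The late c libraries lie between 27.9% and 33.1%, and the late p libraries between 13.3% and 40.7%.

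At stage 3 the libraries of c and p cells overlapped. The log2 difference of c minus p cells was -0.28 (SE 0.36) for *g7019* and 0.24 (SE 0.46) for *g7020*, with opposite signs. Neither sign was stable. That of *g7019* turned when a single library of c cells, c2, was left out (0.086), and that of *g7020* without c1 (-0.13), without p3 (-0.031), with the replicate number as a block (-0.062) and with the 3 models of the NCBI gene summed (-0.10). Of the genes tested at stage 3, 0.245% were called higher and 0% lower in c cells, and neither member was among them.

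At stage 4 *g7019* was 10.7-fold and *g7020* 7.92-fold higher in c than in p cells by group means, and every c library lay above every p library. The fitted log2 differences were 3.45 (SE 0.71) and 3.05 (SE 0.90), where the median of all genes tested was 0.07. Only *g7019* was among the genes called higher, which were 0.437% of all tested (0.0496% were called lower). The p libraries differed among themselves, and the difference of *g7020* was 2.07 without p2 and 4.72 without p1. Library p2, the lowest for *g7019*, also held more of the endoderm gene *fuchi* (512 CPM) than p1 (37.5 CPM). It held more *Pt-hh* (399 against 36.3 CPM) and *Pt-lab1* (314 against 105 CPM) as well, and less *Pt-opa* (225 against 321 CPM). At early stage 5 p2 again held more *fuchi* (290 CPM) than p1 (62.7 CPM), but there p2 had the higher level of both members. The part of these differences in the level of the pair was not tested.

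At early stage 5 the difference was 16.7-fold for *g7019* and 28.4-fold for *g7020* by group means, again without overlap. The fitted log2 differences were 4.01 (SE 0.38) and 4.75 (SE 0.54), against a median of 0.18 over all genes. Both members were among the genes called higher in c cells, 0.77% of those tested (0.0423% were called lower). From stage 3 to early stage 5 the c minus p difference grew by 4.29 on the log2 scale for *g7019* and by 4.51 for *g7020*. A test of the change of this difference over the 3 stages called 11 of 13306 genes (0.0827%), both members included. For the change from stage 3 to stage 4 alone, 9 of the 13306 genes were called, *g7019* among them but not *g7020*. Since the pair was proposed for a comparison of this difference by stage, nothing is read from these calls.

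**Figure D4:**
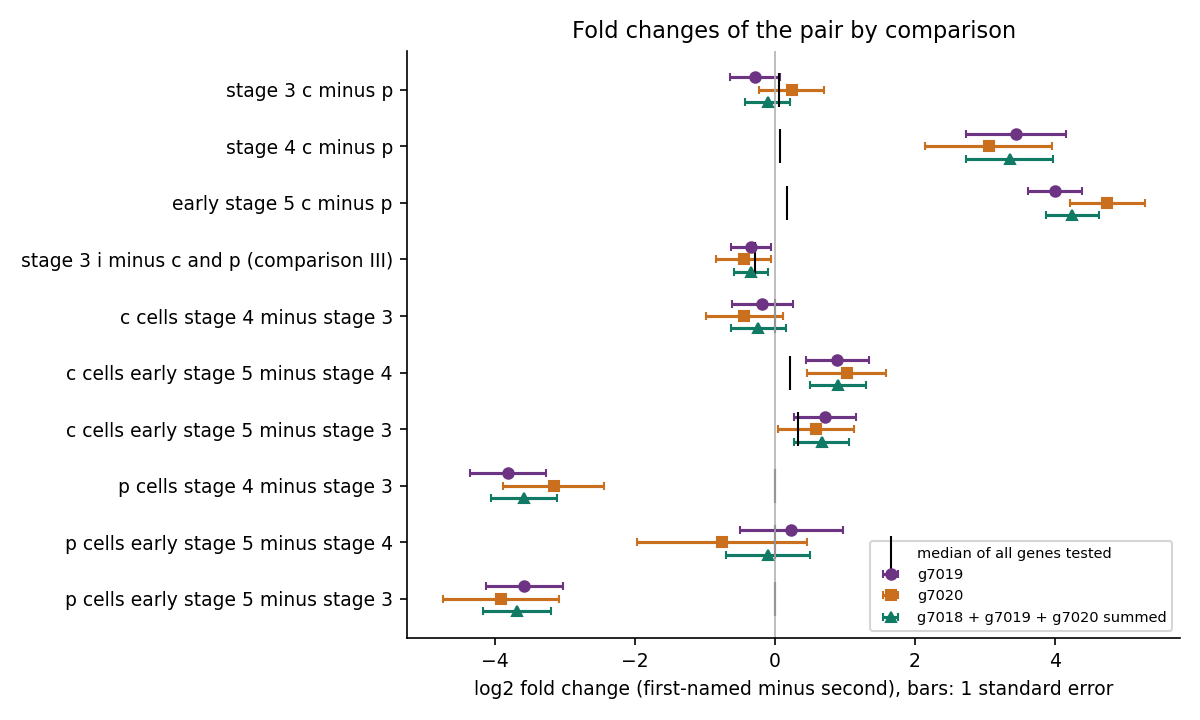
Fitted log2 fold change of *g7019*, *g7020* and the summed counts of the 3 models of LOC107436137 in each comparison (points; bars, 1 SE), with the median of all genes tested (black line). The c minus p difference is between -0.28 and 0.24 for the pair at stage 3 and between 3.05 and 4.75 at the later stages, and in p cells the 2 changes from stage 3 lie between -3.92 and -3.16.

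The separate change of each region over time showed where the levels moved. The changes in p cells use the late p libraries on which the c minus p difference rests. Stage cannot be told apart from mother in them. The p-values of these changes are thus a description and not independent of the choice of the pair. In p cells both members fell from stage 3 to stage 4, by 14.6-fold for *g7019* (log2 fold change -3.81, SE 0.55, adjusted p = 1.25e-09) and 8.92-fold for *g7020* (-3.16, SE 0.72, adjusted p = 0.000585) by group means. Every stage-3 p library lay above every stage-4 p library. Of 13306 genes tested, 1.52% were called lower and 3.39% higher in this comparison. Of the 23 alternative settings, 13 left out 1 library of the fit, many of them libraries outside this contrast, and 1 summed the 3 models. The fall of *g7019* passed the threshold in all 23 of 23. That of *g7020* passed in 21 of 23, and was lost with edgeR's likelihood ratio test (adjusted p = 0.125) and without stage-4 p2 (adjusted p = 0.180).

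From stage 3 to early stage 5 the levels in p cells were lower by 12.3-fold for *g7019* (log2 -3.58, SE 0.55, adjusted p = 1.39e-08) and by 15.8-fold for *g7020* (-3.92, SE 0.83, adjusted p = 0.000157), where 1.49% of the genes tested were called lower and 2.25% higher. Without early stage-5 p1 the call of *g7020* was lost (adjusted p = 0.102). Between stage 4 and early stage 5 the p cells gave log2 fold changes of 0.24 (SE 0.74) for *g7019* and -0.76 (SE 1.21) for *g7020*, with an adjusted p of 1 for both. Of all genes tested, 0.421% were called lower and 0.0827% higher. The sign of *g7019* turned without stage-4 p2 (-0.53) and without early stage-5 p2 (-0.15), and that of *g7020* without stage-4 p1 (0.97). These changes use the same late p libraries as the c minus p differences, and the comparisons with stage 3 share the stage-3 p libraries, so that they are not independent of each other nor of the choice of the pair.

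In c cells neither member passed the test in any comparison of stages. From stage 3 to stage 4 *g7019* changed by -0.18 on the log2 scale (SE 0.44, adjusted p = 1) and *g7020* by -0.44 (SE 0.55, adjusted p = 0.814). From stage 4 to early stage 5 the values were 0.89 (SE 0.45) and 1.03 (SE 0.56), with an adjusted p of 1 for both, and from stage 3 to early stage 5 they were 0.72 (SE 0.44, adjusted p = 0.797) and 0.59 (SE 0.54, adjusted p = 0.964). The background shares called in c cells were 2.19% higher and 1.56% lower for stage 4 against stage 3, 0.113% and 0.233% for early stage 5 against stage 4, and 1.96% and 1.24% for early stage 5 against stage 3. The 95% intervals of these changes were wide. That of *g7020* from stage 4 to early stage 5, for instance, ran from -0.075 to 2.14 on the log2 scale, and that of *g7019* from stage 3 to stage 4 from -1.04 to 0.69.

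In i cells of stage 3 the levels of both members lay within or near those of c and p cells. In comparison III (i cells against c and p cells joined) the log2 fold change was -0.34 (SE 0.28, adjusted p = 0.904) for *g7019* and -0.44 (SE 0.39, adjusted p = 0.904) for *g7020*. The median of all genes in this comparison was itself -0.29, and 0.0552% of them were called higher and 0.129% lower in i cells. The i libraries had no count of *fuchi* or of any of the 3 centre markers, and in these libraries the pair stood at 224 to 672 CPM.

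The third model of the same NCBI gene, *g7018*, was far lower and more uneven. It had 465 and 239 counts in stage-3 c libraries, 669, 93 and 0 counts in i libraries and 350, 113 and 1 counts in p libraries. Libraries of the same region thus differed widely, down to none. At stage 4 it had 507 and 23 counts in c cells and 0 in both p libraries, and at early stage 5 163 and 200 counts in c cells and again 0 in both p libraries. Against a floor of 3 counts per library, c cells exceeded stage-4 p cells in *g7018* by at least 87.8-fold. This bound rested on library c1, and the level of c2 alone, 2.78 CPM, was 6.26 times the floor. The bound at early stage 5 was 74.0-fold. In the tests of c minus p cells *g7018* was not called at stage 4 or early stage 5, where 0.437% and 0.77% of all genes were called higher. Its change in p cells from stage 3 to stage 4 did not pass the test (adjusted p = 0.578). It made up at most 8.96% of the counts of the 3 models in any library. Summing the 3 models into 1 feature gave a change in p cells of -3.59 (SE 0.47, adjusted p = 1.69e-11) from stage 3 to stage 4 and of -3.68 (SE 0.49, adjusted p = 1.09e-11) from stage 3 to early stage 5. The sum consists mostly of the counts of the pair and uses the same late p libraries. Its p-values are likewise a description and not independent of the choice of the pair. In p cells between the later stages the summed value was -0.095 (SE 0.60, adjusted p = 1).

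The upstream neighbour *g7021*, a separate NCBI gene, had a similar profile at a lower level. It had 210 and 156 CPM in stage-3 c cells, 90.5, 57.6 and 194 CPM in i cells and 143, 159 and 142 CPM in p cells. At stage 4 it had 329 and 68.1 CPM in c cells and 0 and 6.63 CPM in p cells. At early stage 5 it had 183 and 351 CPM in c cells and 6.38 and 20.6 CPM in p cells. The level of *g7021* in p cells fell from stage 3 to stage 4 (log2 fold change -5.14, SE 1.25, adjusted p = 0.00182) and was lower at early stage 5 than at stage 3 (-3.39, SE 1.05, adjusted p = 0.036). In c cells it passed no test of stages (adjusted p from 0.964 to 1). Apart from *g7018* and *g7021*, no flanking model had counts at stage 3.

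The other model that carries the product name, *g10890* (LOC107455578), lies on another scaffold (1228, 659666 to 665896, plus strand) and followed a different course. At stage 3 all 8 libraries had 210 to 388 CPM, in the range of *g7020*. At stage 4 it had 53.0 and 38.2 CPM in c cells and 26.8 and 18.8 CPM in p cells, and at early stage 5 it had no count in any of the 4 libraries. It fell from stage 3 to stage 4 in c cells (log2 fold change -3.08, SE 0.75, adjusted p = 0.00263) as well as in p cells (-3.56, SE 0.84, adjusted p = 0.00117). From stage 3 to early stage 5 the level was at least 503-fold lower in c cells and at least 467-fold lower in p cells, against the floor of 3 counts. Thus the models of LOC107436137 and *g10890*, which share a product name, both had lower levels in p cells after stage 3, while in c cells the fall passed the test for *g10890* and not for the pair. The difference between these 2 courses in c cells was not tested.

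Over the 16 libraries the log2 levels of *g7019* and *g7020* had a Pearson r of 0.97 and a Spearman rho of 0.94. Without the 4 late p libraries r was 0.85 and rho 0.87 (n = 12). The points share libraries, depth and possibly a transcript, and the values are a description. The gene with the pattern most like *g7019* outside its own NCBI gene was the neighbour *g7021* (r = 0.89 over 16 libraries), followed by *g407* (uncharacterized, 0.87), *g12730* (BTB/POZ domain-containing protein 9-like, 0.85), *g10527* (dimethylaniline monooxygenase, 0.83) and *g10834* (ATP-binding cassette sub-family D member 2, 0.81). For *g7020* these were *g407* (0.87), *g25157* (DNA polymerase subunit gamma-1-like, 0.86), *g7021* (0.82), *g10527* (0.81) and *g12730* (0.77), so that 4 of 5 were shared. Without the late p libraries r stayed at 0.79 and 0.77 for *g7021*, but ranged from -0.24 to 0.22 for the others. Likeness of the latter thus lay largely in the low values of the late p libraries. There *g407* for instance had 0 to 0.385 CPM against 11.4 to 296 CPM elsewhere. *g25157* was not low in all of them, with 31.8 CPM in stage-4 p1 against 13.9 to 21.8 CPM in the late c libraries.

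To read the fall in p cells against other genes, the 1862 genes with a mean of at least 100 CPM in stage-3 p cells were taken. This cut has no upper bound, so the genes were not matched to the level of the pair. It lies on the group from which the fall was measured, which can favour falls. The median log2 fold change of these genes in p cells was 0.10 from stage 3 to stage 4 and -0.13 from stage 3 to early stage 5. A change as low as that of *g7019* was shown by 79 of them (4.24%) at stage 4 and 142 (7.63%) at early stage 5, and one as low as that of *g7020* by 113 (6.07%) and 134 (7.20%), each count including the member itself.

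Models with names of the same kind (mucin, adhesin, hemagglutinin, adhesive plaque, filaggrin or zonadhesin) numbered 70, of which 40 were tested for stages. In p cells 0 rose and 2 fell from stage 3 to stage 4, and 0 rose and 1 fell from stage 3 to early stage 5, with a median log2 fold change of 0 in both, as for all genes. Of all genes tested, 3.39% rose and 1.52% fell in the former comparison and 2.25% and 1.49% in the latter. In c cells 2 rose and 2 fell from stage 3 to stage 4, and 3 rose and 2 fell from stage 3 to early stage 5, where 2.19% and 1.56%, then 1.96% and 1.24%, of all genes rose and fell. The median of the list in c cells was 0 at stage 4 but 2.09 at early stage 5, against 0.33 for all genes. Since 19 of the 40 had no count in at least 1 of these groups, the fitted values depend in part on the count that edgeR adds, and with levels held at no less than 3 counts the median was 1.46 against 0.31. Of 36 tested between c and p cells at early stage 5, 1 was higher in c cells, *g13997* (serine-rich adhesin for platelets, log2 difference 2.05), where 0.77% of all genes were. The median of these 36 was 2.82 against 0.18 for all genes, and 0.67 against 0.22 with levels held at the floor, 17 of them having no count in at least 1 of the groups. The 3 most abundant were *g18445* (serine-rich adhesin for platelets, mean 443 CPM over 16 libraries), *g1263* (mucin-5AC, 382 CPM) and *g6582* (serine-rich adhesin for platelets, 305 CPM). Of these *g6582* fell from stage 3 to stage 4 in both regions, with log2 fold changes of -1.94 in p cells (adjusted p = 0.0212) and -4.24 in c cells (adjusted p = 8.9e-07). Its stage-4 p libraries differed widely, with 260 CPM in p1 and 3.19 CPM in p2, against 480 to 569 CPM in the stage-3 p libraries.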

How the data were processed

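The authors sequenced poly(A) RNA of the 16 cell pools as single-end reads after PCR amplification of the cDNA, and aligned them to Ptep_1.0 with BLAT. Alignments were kept only if nearly unique, so reads shared by close copies were dropped. Reads were counted by htseq-count at its default settings (HTSeq 0.5.4p5 in the submitters' processing notes), which leave out a read that meets 2 overlapping models, as *g7018* and *g7019* do. The deposited counts are raw counts per model. The deposited RPKM were computed by the authors. All 16 columns matched a sample. 5 rows without a gene (8.18% to 8.85% of early stage-5 counts) were left out.

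Levels are TMM-normalized CPM over 16 libraries. Genes that reached 1 CPM in any 1 library of the fit were tested with edgeR 4.0.16 (R 4.3.3, limma 3.58.1), quasi-likelihood F test, Benjamini-Hochberg adjustment over all genes tested, threshold 0.05. The SE is the absolute log2 fold change divided by the square root of F. Stages were compared in 1 fit of the 13 c and p libraries. Scripts were tested on simulated data. Libraries of 1 group share a mother, so p-values measure the spread between pools.

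The members and lists were chosen with earlier results of these data known. Named by rule are the pair, models of the same product or NCBI gene, 5 models on each side, the 5 models of highest r for each member and up to 3 of the adhesin-like list by mean CPM. Alternatives were DESeq2 1.42.0, edgeR's likelihood ratio test, other size factors and filters, summed models, all 16 libraries in 1 fit, 3 separate groups in comparison III, a replicate block, a pseudocount of 0.1 and each library left out. The legacy form of glmQLFit was an alternative chosen after seeing the data.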

Additional observations from a re-analysis of the deposited data

Results flagged for a closer look

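The difference between c and p cells was not the same at all stages. From stage 3 to early stage 5 it grew by 4.29 on the log2 scale for *g7019* and by 4.51 for *g7020*, with every early stage-5 c library above every early stage-5 p library. Both models belong to 1 NCBI gene and were picked for a comparison of this difference by stage, so the interaction test that listed them here reuses the values behind that choice. These values are a description of 1 observation, and nothing is read from the test. No group had enough libraries for a test of single outlying libraries.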

How the results depend on the processing

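In p cells the fall of *g7019* passed the threshold in 23 of 23 alternatives, both from stage 3 to stage 4 and to early stage 5, and that of *g7020* in 21 of 23 and 22 of 23. Many of these alternatives left out a library outside the contrast. From stage 3 to stage 4, *g7020* gave -2.96 (adjusted p = 0.125) with edgeR's likelihood ratio test. With 1 library left out it ran from -4.88 to -2.16 (stage 4) and from -5.24 to -3.27 (early stage 5). The change between the later stages in p cells was -0.095 with the models summed, where *g7019* alone gave 0.24, and ran from -0.53 to 1.27 for *g7019* and from -2.07 to 0.97 for *g7020* with 1 library left out. Other such ranges were, for c minus p cells, -0.82 to 0.086 for *g7019* and -0.13 to 0.51 for *g7020* at stage 3, 2.70 to 4.42 for *g7019* and 2.07 to 4.72 for *g7020* at stage 4, and 3.48 to 4.42 and 4.11 to 6.06 at early stage 5. In c cells they were -0.78 to 0.34 and -1.24 to 0.10 from stage 3 to stage 4, and -0.033 to 0.99 for *g7020* from stage 3 to early stage 5. For the change of the c minus p difference from stage 3 they were 2.87 to 4.67 and 1.72 to 4.45 at stage 4, and 3.86 to 5.84 for *g7020* at early stage 5. The causes were not tested. An arm left with 1 library was assumed to vary like the others.

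The calls between c and p cells held in 8 of 13 alternatives for *g7019* at stage 4 and for both members at early stage 5. Counts of genes called depended on the tool. The c minus p comparison gave 25 at stage 3 (0 to 888 over the other settings, libraries left out included), 49 at stage 4 (0 to 278) and 96 at early stage 5 (0 to 411), comparison III 20 (4 to 676), p cells 653 from stage 3 to 4 (236 to 1266), 67 from 4 to 5 (12 to 262) and 498 from 3 to 5 (243 to 1185), and c cells 500 (85 to 898), 46 (13 to 171) and 426 (132 to 758). The change of the c minus p difference gave 11 (1 to 104). The highest counts came from DESeq2. At stage 4 no gene was called without p1 or without p2, and at early stage 5 at most 1 was, whichever library was left out. With a pseudocount of 0.1 CPM, 4 and 3 of the 5 genes of like pattern stayed. Deviations of same-numbered c and p libraries had r from -0.07 to 0.04, so no pairing by replicate number was seen. With so few libraries per group, these values cannot show that the libraries were unpaired. With a replicate block the changes in p cells were -3.91 and -3.44 at stage 4, and -3.66 and -4.18 at early stage 5, and the block gave 0, 8 and 0 genes for c minus p cells at the 3 stages and 4 for comparison III. With 37 counts, the lowest library of *g7020* limits its precision in late p cells.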

Other observations

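Of the 1862 genes of at least 100 CPM in stage-3 p cells, 176 had a lower level called in p cells by stage 4. By early stage 5 the number was 197, and 122 were called at both. Of all 13306 genes tested, 202 (1.52%) and 198 (1.49%) were called lower in these comparisons. In 5 of these 122 the log2 fold change in c cells was above -1 at both stages. This cut was chosen after the values had been seen, and no test was made of the list. The cut on level lies on the stage-3 p cells, from which the fall was measured, and can favour falls. The 5 were *g7019*, *g7020* and *g7021*, which lie next to each other on scaffold 13, and *g24078* and *g27330* on other scaffolds. *g7019* and *g7020* are models of the same NCBI gene. The conditions used follow the course of *g7019* and *g7020*, so that their presence among the 5 was given in advance. *g24078* (scaffold 76) is named fasciclin-2, in *Drosophila* a cell adhesion molecule of the immunoglobulin superfamily, and had means of 201, 14.0 and 5.33 CPM in p cells at stage 3, stage 4 and early stage 5, against 128, 177 and 132 CPM in c cells. *g27330* (scaffold 211) is uncharacterized and had 257, 21.1 and 34.1 CPM in p cells, against 379, 1041 and 492 CPM in c cells. For *g7021* the means were 148, 3.32 and 13.5 CPM in p cells and 183, 199 and 267 CPM in c cells.

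Of the flanking models, *g7022* and *g7023*, which lie farther upstream on the same strand, had no count at stage 3 and none in the late p libraries. In the late c libraries they had 2 to 288 and 49 to 837 counts. *g7016*, on the opposite strand downstream, had no count at stage 3 either and was at 20.2 and 32.7 CPM in early stage-5 p cells, against 3.61 and 14.4 CPM in early stage-5 c cells.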
